A study of Mus musculus with 6 samples.

Results

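The mitochondrial ribosomal proteins were chosen by symbol: every gene of the deposited count table named Mrpl or Mrps with a number and at most 1 trailing letter, and no pseudogene suffix. That gave 77 of 24421 genes, 48 with a large subunit symbol (Mrpl) and 29 with a small subunit symbol (Mrps). All 77 passed the filter on low counts, among 12820 genes tested. No measured value enters that naming rule, but the family was selected with results of this contrast known, so its counts and fold changes are a description and support nothing by themselves.

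The cells were Neuro2a, derived from a mouse neuroblastoma and used as a stand-in for neurons, and the labels give their genotype as WT. They were grown on collagen I and received an adenovirus (ADV) carrying a short hairpin RNA against Fam172a (shFam172a, 3 samples) or a control hairpin (shCtrl, 3 samples). Total RNA was taken after 48 h, and both groups carried virus. The series title ties Fam172a to histone lactylation and to energy balance, and the contrast asks how lowering Fam172a changes the transcripts of these cells.

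The mitochondrial ribosome sits in the matrix and makes the few proteins that mitochondrial DNA encodes, all of them core subunits of oxidative phosphorylation. Its ribosomal RNAs come from mitochondrial DNA, while every one of its proteins is encoded in the nucleus, made in the cytosol and imported. Some of those proteins have counterparts in bacterial ribosomes, and others are additions found only in mitochondria. The genes lie scattered over the nuclear genome, and their products are needed together for both subunits to assemble.

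Fam172a itself stood at 8.90 ± 0.543 CPM (counts scaled to library depth after TMM) in shFam172a cells and at 19.1 ± 0.469 CPM in shCtrl cells (SD, n = 3 each), a log2 fold change of -1.10 ± 0.092 (SE). Depth went with the group: the libraries held between 21690467 and 23409319 gene counts in shFam172a and between 11250312 and 12820531 in shCtrl. Rn45s, the precursor of cytosolic ribosomal RNA, was at 985 ± 177 CPM in shFam172a and at 492 ± 78.2 CPM in shCtrl. Replicate 3 of shFam172a stood apart within its group, with 4.46% of read pairs of low alignment quality where the others had 6.65% and 7.12%. Without it 43 members of the family were called lower in place of 44, and 2227 of all genes in place of 2386. Of 14 markers of the sympathoadrenal and neural lineage, 13 were tested, 6 were higher and 1, Elavl4, was lower in shFam172a, and their summed level was 2461 to 2495 CPM against 2392 to 2411 CPM. Marker sums in shFam172a and in shCtrl were 4.71 to 6.19 against 6.13 to 6.79 CPM for fibroblasts and 1.11 to 1.153 against 0.234 to 0.946 CPM for macrophages, where 2 of 6 markers were at 0 in all libraries. They were 22.4 to 26.5 against 22.5 to 23.0 CPM for glia, with 1 of 6 markers at 0 throughout, and 15.0 to 16.4 against 14.3 to 14.7 CPM for endothelium and epithelium. The only macrophage marker tested, Cd68, was called higher from a low level, at 1.02 ± 0.107 CPM in shFam172a and 0.514 ± 0.249 CPM in shCtrl. No tested marker of fibroblasts, glia, endothelium or epithelium was called. The part of the markers, of Rn45s and of alignment quality in the results was not tested.

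The family was lower in shFam172a. Of the 77 genes, 44 were called lower (57.1%) and 0 higher, by edgeR's quasi-likelihood test at a Benjamini-Hochberg adjusted p under 0.05, and 33 were not called. Among all 12820 genes tested, 18.6% were called lower and 17.5% higher. In 48 of the 77 all 3 shFam172a libraries lay below all 3 shCtrl libraries, as they did for 23.5% of all genes. The members ranged from -0.54 for Mrpl30 to 0.07 for Mrps28 on the log2 scale, 65 of them below 0, with a median of -0.16 against a median of -0.00030 over all genes tested. In RNA from whole cultures, a fall in RNA per cell and a change in which cells were sampled cannot be told apart. Nothing in the labels says that the samples of a group were separate cultures, so p-values cover only how these samples vary, and that variation may be technical.

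**Figure D1:**
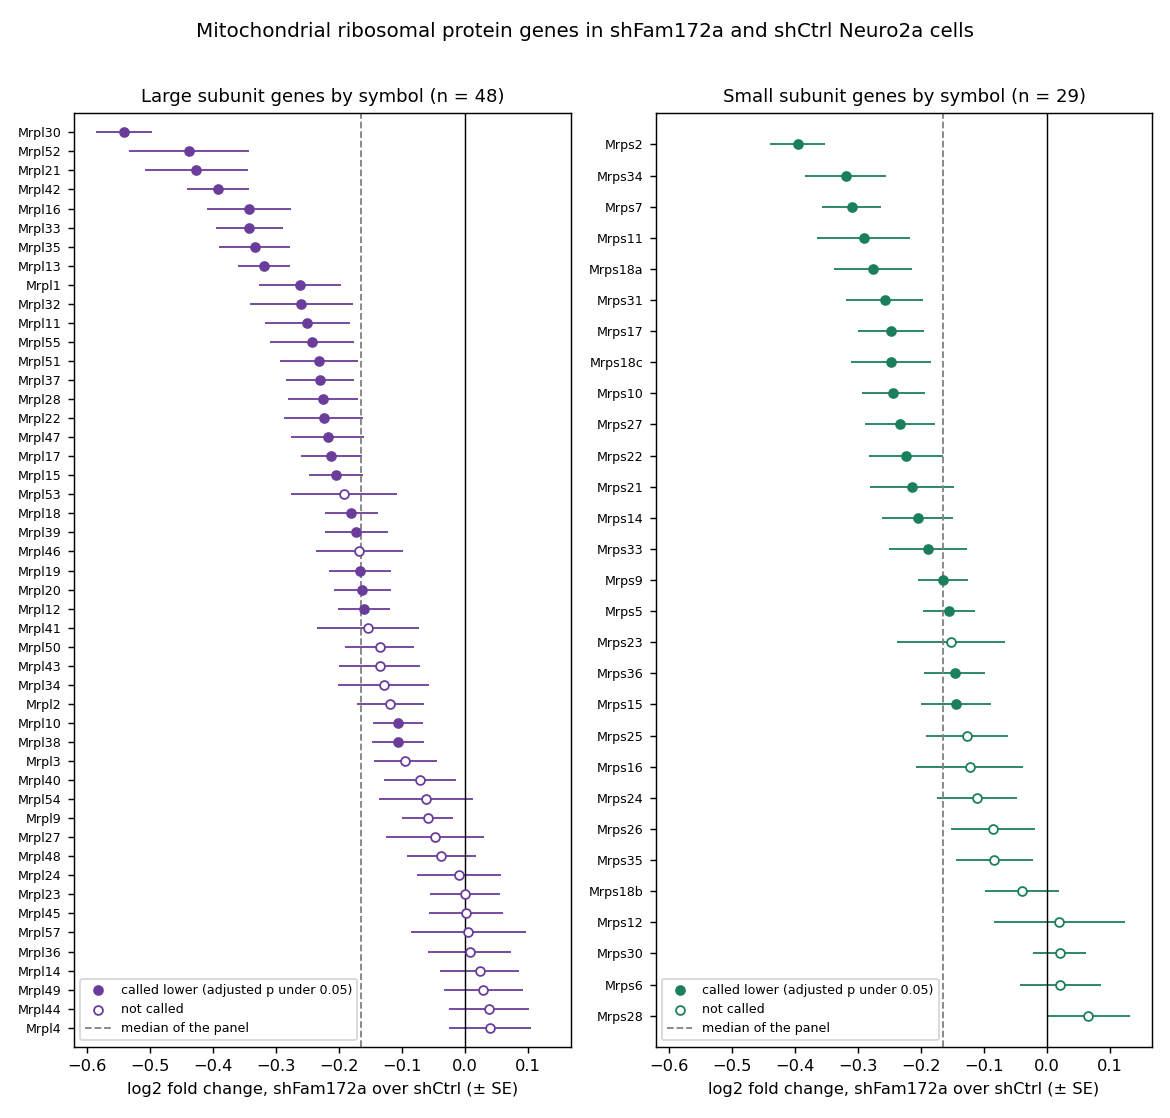
Log2 fold change of each of the 77 mitochondrial ribosomal protein genes, shFam172a over shCtrl (x axis, bars ± SE), with 48 large subunit genes on the left and 29 small subunit genes on the right, ordered by fold change. Filled points are the 44 genes called lower, open points the 33 not called, and the dashed lines mark the panel medians, at -0.17 for the large and -0.16 for the small subunit genes.

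Both subunits were lower in sum. The summed level of the 48 large subunit genes was 2015, 1995 and 1977 CPM in the shFam172a libraries, against 2191, 2283 and 2281 CPM in the shCtrl libraries. The 29 small subunit genes summed to 1182, 1199 and 1155 CPM in shFam172a, against 1292, 1356 and 1341 CPM in shCtrl. In neither sum did the groups overlap, and shCtrl replicate 1 was the control library nearest to shFam172a in both.

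The sum of the large subunit genes was 1995 ± 19.1 CPM in shFam172a and 2251 ± 52.4 CPM in shCtrl (SD, n = 3 each), a difference of -11.4%. The sum of the small subunit genes was 1179 ± 22.5 CPM in shFam172a and 1329 ± 33.3 CPM in shCtrl, a difference of -11.3%. The ratio of the large to the small sum was 1.70, 1.66 and 1.71 in shFam172a and 1.70, 1.68 and 1.70 in shCtrl, with means of 1.69 ± 0.026 in shFam172a and 1.69 ± 0.0088 in shCtrl, so that the ratios of the 2 groups overlapped. As a share of all gene counts the family made up 0.318%, 0.318% and 0.313% in shFam172a and 0.349%, 0.364% and 0.363% in shCtrl. These shares do not depend on the scaling between libraries, and they too did not overlap.

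**Figure D2:**
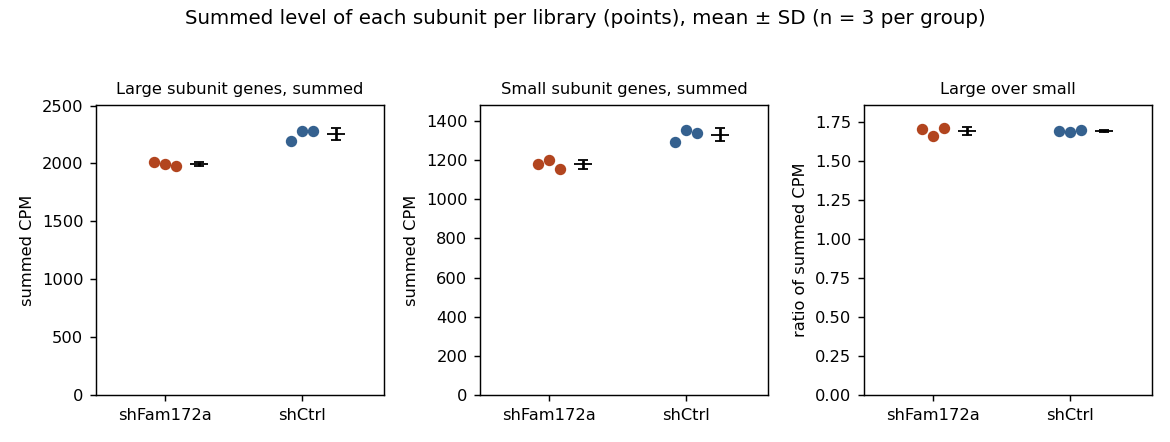
Summed CPM of the 48 large and 29 small subunit genes and the ratio of the 2 sums (y axes, each from 0), for the 3 shFam172a and the 3 shCtrl libraries. Points are libraries and the bars give mean ± SD; both sums are lower in every shFam172a library, and the ratios overlap around 1.69.

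By gene, 26 of 48 large subunit genes (54.2%) and 18 of 29 small subunit genes (62.1%) were called lower, and the medians were -0.17 and -0.16. Symbols do not always give the place in the particle. Mrps18a and Mrps30 encode proteins of the large subunit, and the product of Mrps36 is known as a component of the 2-oxoglutarate dehydrogenase complex. With genes placed by particle, 27 of 50 large subunit genes and 16 of 26 small subunit genes were called lower, with medians of -0.17 and -0.18.

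The calls were also counted by the evolutionary origin of the proteins. Of 47 genes classed as having a bacterial counterpart 32 were called lower (68.1%, median log2 fold change -0.20). Of 30 classed as specific to mitochondria 12 were (40.0%, median -0.14). Within the large subunit the counts were 21 of 31 for bacterial counterparts and 6 of 19 for mitochondria-specific proteins, with medians of -0.20 and -0.14. Within the small subunit they were 11 of 16 and 5 of 10, with medians of -0.18 and -0.17. Mrps18b, which was not called, was counted here as mitochondria-specific although it is related to bacterial S18. Mrps18a and Mrps18c, which are related to S18 as well and were called lower, were counted as bacterial counterparts, Mrps18a within the large subunit. Mrps36, called lower, was counted as mitochondria-specific but placed in neither subunit. The difference between these classes was not tested.

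Promoters were examined because 44 of the 77 genes were called lower and because motifs and neighbours at the 5′ ends did not enter the naming rule. The 5 members shown all hold a match to a motif marked below, so they do not stand for the family. The sequences are the 150 bases before the RefSeq start on the gene's strand, 5′ to 3′, in build GRCm38.p6. Capitals mark exact matches, on either strand, to 2 motifs, GCGCANGCG for nuclear respiratory factor 1 (NRF1) and CCGGAAG for ETS factors such as GABP. Both factors are known regulators of nuclear genes for mitochondrial proteins. Mrpl30 had the lowest fold change of the family and holds NRF1 matches 102 and 82 bases before its start. Mrpl52, the next lowest, holds an ETS match at 47 bases, Mrpl22 an ETS match at 53 and an NRF1 match at 33, and Mrps21 an NRF1 match at 90. Mrpl45, with NRF1 matches at 120 and 38 bases, is shown as a member with a fold change of 0.00.
Mrpl30 (chr1:37890327-37890476, + strand): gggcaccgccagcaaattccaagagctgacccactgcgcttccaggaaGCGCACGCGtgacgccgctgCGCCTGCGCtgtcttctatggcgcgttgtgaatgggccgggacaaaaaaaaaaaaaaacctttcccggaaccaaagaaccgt
Mrpl52 (chr14:54426759-54426908, + strand): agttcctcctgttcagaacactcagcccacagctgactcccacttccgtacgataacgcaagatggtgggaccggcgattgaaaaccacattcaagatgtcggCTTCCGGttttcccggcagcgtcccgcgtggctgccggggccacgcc
Mrpl22 (chr11:58171514-58171663, + strand): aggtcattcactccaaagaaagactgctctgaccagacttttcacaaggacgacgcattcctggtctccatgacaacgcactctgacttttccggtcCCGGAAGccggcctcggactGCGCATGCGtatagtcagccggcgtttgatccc
Mrps21 (chr3:95871515-95871664, - strand): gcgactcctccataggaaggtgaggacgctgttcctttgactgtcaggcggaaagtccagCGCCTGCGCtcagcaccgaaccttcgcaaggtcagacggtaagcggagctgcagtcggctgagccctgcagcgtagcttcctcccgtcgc
Mrpl45 (chr11:97315566-97315715, + strand): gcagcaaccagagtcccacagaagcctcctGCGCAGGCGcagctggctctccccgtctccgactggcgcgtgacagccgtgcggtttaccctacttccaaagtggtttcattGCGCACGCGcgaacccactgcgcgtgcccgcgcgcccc

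Of the 77 genes 68 had a promoter entry in the RefSeq table, which runs from 250 bases before to 50 bases after each start, and 9749 of all genes tested had one. An NRF1 match was found in 16 of 68 member promoters (23.5%) and in 14.1% of all promoters. An ETS match was found in 24 of 68 (35.3%) and in 18.3% of all. AAGATGGCG, a match to the YY1 motif, was found in 8 of 68 (11.8%) and in 3.29% of all. At least 1 of these 3 motifs was present in 40 of 68 member promoters (58.8%), and in 31.6% of all promoters. The E-box CACGTG was in 5 of 68 (7.35%) and in 10.2% of all, and ACGTG, the core of the hypoxia response element, which lies inside that E-box, was in 15 of 68 (22.1%) and in 25.9%. Promoter base composition was not adjusted for, and the median GC content was 58.2% in member promoters and 61.0% in all.

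Within the family, calls were counted with and without each match. With an NRF1 match 9 of 16 members were called lower and without one 30 of 52. For ETS the counts were 13 of 24 with a match and 26 of 44 without, and for YY1 6 of 8 and 33 of 60. For the E-box they were 3 of 5 and 36 of 63, and for ACGTG 7 of 15 and 32 of 53. Over all tested genes with a promoter entry, 22.7% with an NRF1 match and 18.5% without one were called lower. The shares lower were 24.4% and 17.9% for ETS, and 19.9% and 19.0% for YY1. The shares called higher were 18.1% and 17.3% for NRF1, 14.0% and 18.2% for ETS, and 16.8% and 17.4% for YY1. For the E-box they were 17.8% and 17.4%, and for ACGTG 21.5% and 16.0%. Among members the median log2 fold change was -0.13 with NRF1 and -0.18 without, -0.19 with ETS and -0.16 without, and -0.25 with YY1 and -0.16 without. It was -0.16 with the E-box and -0.17 without, and -0.14 with ACGTG and -0.17 without. A match is a run of letters and not evidence of binding.

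**Figure D3:**
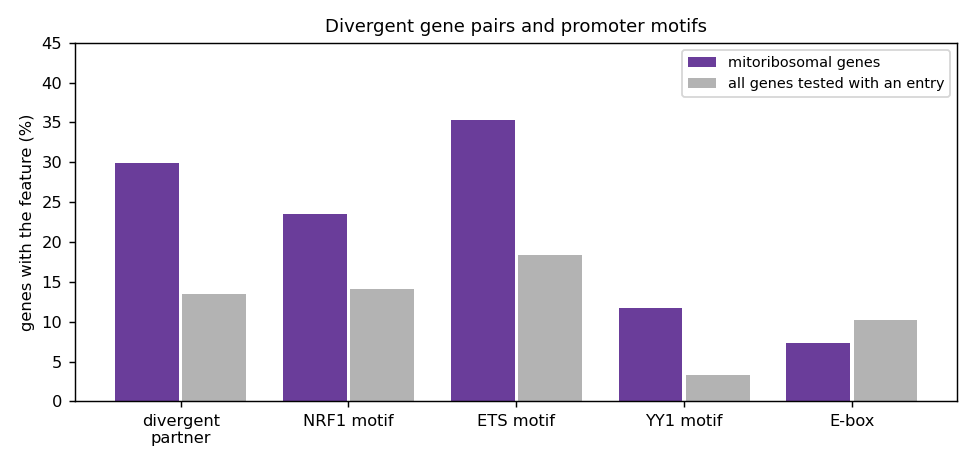
Share of genes (y axis, %) that have a divergent partner gene or hold a motif in the promoter window, for mitochondrial ribosomal protein genes (left bars) and for all genes tested that have an entry (right bars). For the divergent partner the right bar covers the tested genes annotated as protein-coding. The member bars stand at 29.9% for a divergent partner and 23.5%, 35.3% and 11.8% for NRF1, ETS and YY1, each above its neighbour, and at 7.35% for the E-box, below its neighbour.

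The other feature examined at the 5′ ends was a divergent partner, here a protein-coding gene read in the opposite direction whose start lies up to 1000 bases upstream or whose 5′ end overlaps by at most 300 bases. One was annotated for 23 of the 77 members (29.9%), and for 1634 of the 12151 tested genes annotated as protein-coding (13.4%). Mrps11 and Mrpl46, whose 5′ ends overlap by more than that limit, are not counted. Of members with a partner 11 of 23 were called lower, and of those without one 33 of 54. Of the 22 partners that were tested, 5 were lower (22.7%) and 2 higher (9.09%), where 18.6% of all genes were lower and 17.5% higher, with a median log2 fold change of -0.03. Across those 22 pairs the fold changes of member and partner had a Pearson's r of 0.02 and a Spearman's rho of 0.04, as a description over genes that share the same 6 libraries. Mitd1, whose start lies 66 bases from that of Mrpl30, had a log2 fold change of -0.23 and was not called (adjusted p = 0.058).

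Among the large subunit genes the lowest fold changes were those of Mrpl30, Mrpl52, Mrpl21, Mrpl42, Mrpl16, Mrpl33, Mrpl35 and Mrpl13. Mrpl30, a counterpart of bacterial L30 on chromosome 1 (37890477-37898535, GRCm38), had 65.2, 60.9 and 62.0 CPM in shFam172a and 86.3, 94.3 and 92.8 CPM in shCtrl. The groups lay far apart for their spread, and the log2 fold change was -0.54 ± 0.044 (SE; adjusted p = 1.63e-12 by edgeR's quasi-likelihood test with Benjamini-Hochberg adjustment). Mrpl30 also had the highest level per length of the large subunit genes in shCtrl, with 217 ± 7.0 TPM (a level per length, scaled to a fixed total per library, from the length of 1 transcript per gene) in shFam172a and 312 ± 12.8 TPM in shCtrl.

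Mrpl52, a mitochondria-specific protein, had 15.6, 13.8 and 12.5 CPM in shFam172a and 15.9, 20.4 and 20.3 CPM in shCtrl. Its log2 fold change was -0.44 ± 0.095, and shCtrl replicate 1 came close to the highest shFam172a library. Mrpl21, a counterpart of bacterial L21, had 16.2, 14.1 and 15.4 CPM in shFam172a and 19.98, 19.9 and 21.6 CPM in shCtrl, without overlap and with a log2 fold change of -0.43 ± 0.082. Its exons overlap those of Ighmbp2 on the opposite strand by 117 bases, and the strand setting of the counting is not given in the sources used here.

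Mrpl42, which has no bacterial counterpart, had 61.7, 56.0 and 57.4 CPM in shFam172a and 70.5, 80.5 and 78.4 CPM in shCtrl, and its log2 fold change was -0.39 ± 0.049. Mrpl33, a counterpart of the small bacterial protein L33, had 41.5, 45.8 and 40.5 CPM in shFam172a and 55.2, 53.1 and 53.9 CPM in shCtrl (-0.34 ± 0.053 log2). Its exons share 261 bases with Gm43809 on the same strand, so its counts are uncertain. Per length these 2 genes came next after Mrpl30 among the large subunit symbols in shCtrl: Mrpl42 stood at 202 ± 9.59 TPM in shFam172a and 262 ± 16.6 TPM in shCtrl, and Mrpl33 at 204 ± 12.5 TPM in shFam172a and 256 ± 6.64 TPM in shCtrl. In shCtrl their TPM levels differed by less than the spread of Mrpl42.

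Mrpl16, a counterpart of bacterial L16, had 24.3, 23.8 and 26.5 CPM in shFam172a and 32.6, 30.5 and 31.7 CPM in shCtrl (-0.34 ± 0.066 log2). Mrpl13, a counterpart of bacterial L13, had 79.2, 79.0 and 73.8 CPM in shFam172a and 96.7, 98.5 and 94.1 CPM in shCtrl (-0.32 ± 0.042 log2), and shares 330 exon bases with Mtbp on the opposite strand. Mrpl35, a counterpart of bacterial L35, had 36.9, 38.04 and 34.4 CPM in shFam172a and 44.2, 48.7 and 44.7 CPM in shCtrl (-0.33 ± 0.057 log2). None of these 3 genes had a shFam172a library that reached its lowest shCtrl library.

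At the other end, the large subunit symbols lowest per length in shCtrl were Mrpl57 and Mrpl32. The rank rests on the transcripts used, of 2877 and 3013 bases, with 306 and 561 of them coding. Mrpl57, a mitochondria-specific protein, had 14.4, 13.04 and 13.8 CPM in shFam172a and 13.5, 14.3 and 13.1 CPM in shCtrl, overlapping groups with a log2 fold change of 0.01 ± 0.091 whose sign changed when single libraries were left out. Ska3, which starts 49 bases from Mrpl57 in the opposite direction, was called lower, at -0.35 log2 (adjusted p = 3.97e-05). Mrpl32, a counterpart of bacterial L32 that is known to be cut by the m-AAA protease of mitochondria, had 18.5, 19.3 and 18.1 CPM in shFam172a and 20.1, 25.9 and 20.7 CPM in shCtrl. Its log2 fold change was -0.26 ± 0.082 (adjusted p = 0.0113 by edgeR's test). Without shCtrl replicate 2 the value was -0.13 and the adjusted p 0.291. By DESeq2 they were -0.26 and 0.0617, and with a correction for coding length and GC content -0.19 and 0.0549. The call thus depended on that library and on the method.

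**Figure D4:**
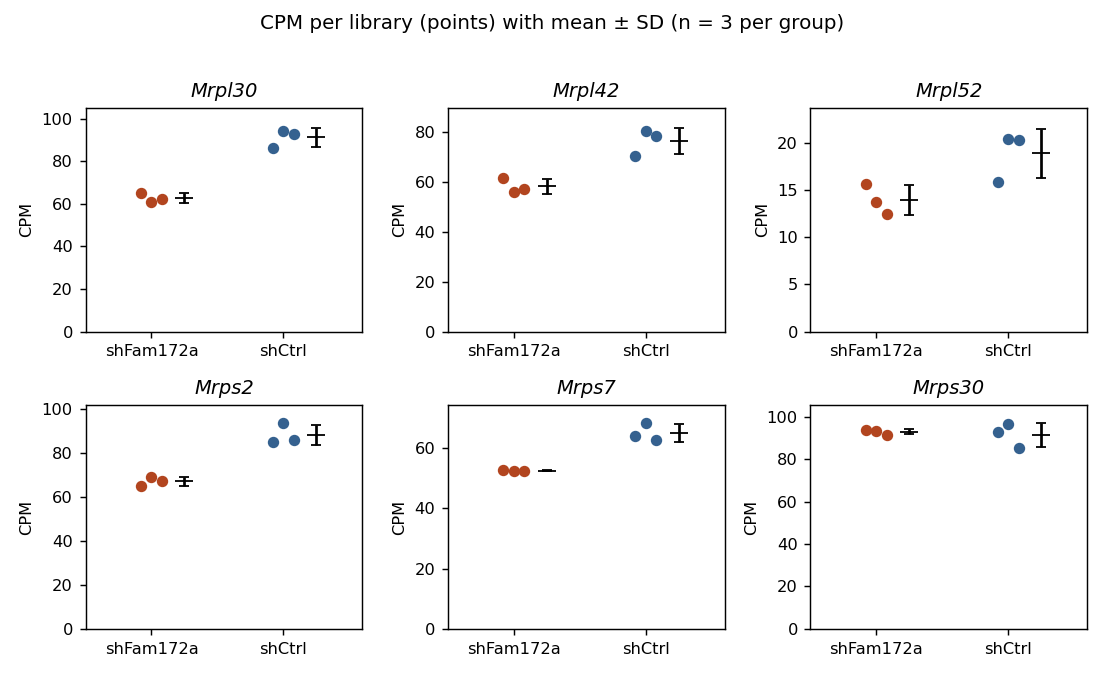
CPM of 6 members (y axes, each from 0) in the 3 shFam172a and the 3 shCtrl libraries, with mean ± SD at the right of each group. Mrpl30, Mrpl42, Mrps2 and Mrps7 separate clearly, Mrpl52 separates narrowly because of shCtrl replicate 1 at 15.9 CPM, and Mrps30 overlaps.

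Among the small subunit genes Mrps2, a counterpart of bacterial S2, had the lowest fold change. It had 65.2, 69.1 and 67.3 CPM in shFam172a and 85.2, 93.6 and 86.2 CPM in shCtrl, which is -0.40 ± 0.044 log2 (adjusted p = 3.18e-09 by edgeR's quasi-likelihood test). Mrps7, a counterpart of bacterial S7 in the head of the subunit, had 52.6, 52.5 and 52.3 CPM in shFam172a and 64.0, 68.3 and 62.6 CPM in shCtrl (-0.31 ± 0.047 log2); its exons overlap those of Gga3 and Mif4gd on the opposite strand, by 127 and 119 bases. In both genes the gap between the groups exceeded the range within either group.

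Mrps34, a mitochondria-specific protein, had 24.9, 24.4 and 24.4 CPM in shFam172a and 30.6, 30.8 and 30.5 CPM in shCtrl (-0.32 ± 0.064 log2). The Mrps34 transcript used here has 918 bases, and the exons of the gene overlap those of Nme3 by 763 bases on the same strand and those of Mapk8ip3 by 1309 bases on the opposite one, so its counts are uncertain. Mrps11, a counterpart of bacterial S11, had 22.8, 24.9 and 24.01 CPM in shFam172a and 24.9, 30.9 and 31.8 CPM in shCtrl (-0.29 ± 0.074 log2), and shCtrl replicate 1 lay beside the highest shFam172a library. Its 5′ end overlaps that of another member, Mrpl46, by 173 exon bases on the opposite strand. Mrpl46 had 22.1, 23.2 and 22.6 CPM in shFam172a and 24.4, 25.2 and 26.7 CPM in shCtrl, and at -0.17 ± 0.069 log2 (adjusted p = 0.0543) it was not called.

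Mrps31, Mrps17 and Mrps18c completed the 8 small subunit symbols of lowest fold change together with Mrps18a. Mrps31, a mitochondria-specific protein, had 34.2, 35.0 and 33.3 CPM in shFam172a and 36.6, 41.5 and 44.4 CPM in shCtrl (-0.26 ± 0.061 log2). Mrps17, a counterpart of bacterial S17, had 43.8, 42.0 and 40.4 CPM in shFam172a and 48.9, 49.9 and 51.1 CPM in shCtrl (-0.25 ± 0.052 log2). Neither overlapped between the groups.

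Mammals have 3 genes related to bacterial S18, and their values are set side by side. Mrps18a, whose protein sits in the large subunit, had 32.1, 31.1 and 28.5 CPM in shFam172a and 35.3, 36.8 and 38.9 CPM in shCtrl (-0.28 ± 0.062 log2). Mrps18c, in the small subunit, had 26.6, 27.4 and 25.5 CPM in shFam172a and 31.0, 31.7 and 31.8 CPM in shCtrl (-0.25 ± 0.063 log2), and shares 250 exon bases with Gm43511 on the same strand. Mrps18b, also in the small subunit and set beside them after its values were seen, averaged 40.5 ± 2.52 CPM in shFam172a and 41.7 ± 2.79 CPM in shCtrl (SD, n = 3 each; -0.04 ± 0.059 log2), and was not called. Its exons overlap those of Gm16279 by 638 bases on the opposite strand. Whether Mrps18b differed from the other two was not tested.

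The other 2 genes whose symbol departs from their place had fold changes smaller in size than that of Mrps18a. Mrps30, in the large subunit, had 93.8, 93.4 and 91.6 CPM in shFam172a and 92.6, 96.4 and 85.4 CPM in shCtrl, overlapping groups with a log2 fold change of 0.02 ± 0.042 that changed sign without shCtrl replicate 3, and 623 of its exon bases overlap B430218F22Rik on the opposite strand. Mrps36 had 62.6, 67.5 and 62.8 CPM in shFam172a and 65.6, 72.9 and 75.04 CPM in shCtrl. It was called at -0.15 ± 0.049 log2 (adjusted p = 0.0164) although the groups overlapped. Without shCtrl replicate 2, shCtrl replicate 3 or shFam172a replicate 1 its fold change was -0.13, -0.11 or -0.13 log2 and its adjusted p 0.0963, 0.144 or 0.0595, and by DESeq2 they were -0.14 and 0.0682. With the correction for coding length and GC content they were -0.10 and 0.0886.

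Per length, Mrps36, Mrps9 and Mrps33 were the highest small subunit symbols in shCtrl. Mrps36 stood at 258 ± 10.6 TPM in shFam172a and 282 ± 18.3 TPM in shCtrl, Mrps9 at 159 ± 5.54 TPM in shFam172a and 176 ± 0.521 TPM in shCtrl, and Mrps33 at 155 ± 0.773 TPM in shFam172a and 174 ± 16.2 TPM in shCtrl. In shCtrl the last 2 levels differed by less than the spread of Mrps33. Mrps9, a counterpart of bacterial S9, had 103, 97.1 and 94.7 CPM in shFam172a and 110 CPM in each shCtrl library (-0.16 ± 0.039 log2).

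Mrps33, a mitochondria-specific protein, had 34.1, 33.9 and 33.1 CPM in shFam172a and 39.6, 41.1 and 34.3 CPM in shCtrl, where replicate 3 came close to the shFam172a libraries. Its log2 fold change was -0.19 ± 0.062 (adjusted p = 0.0143). Without shCtrl replicate 1 it was -0.17 (adjusted p = 0.0609), and without shCtrl replicate 2 -0.13 (adjusted p = 0.166). Corrected for length and GC content it was -0.14 (adjusted p = 0.0572), and for coding length and GC content, a setting added after seeing the data, -0.11 (adjusted p = 0.168). By DESeq2 it was -0.19 (adjusted p = 0.0704). The lowest per length were Mrps16, a counterpart of bacterial S16, at 14.9 ± 0.591 TPM in shFam172a and 16.0 ± 1.74 TPM in shCtrl, and Mrps25, a mitochondria-specific protein, at 10.2 ± 0.256 TPM in shFam172a and 10.97 ± 0.434 TPM in shCtrl. At -0.12 ± 0.085 and -0.13 ± 0.065 log2, neither of them was called, and exons of Mrps25 overlap those of Nr2c2 by 4590 bases on the opposite strand. Their rank rests on the transcripts used, of 2572 bases for Mrps16 and 6073 for Mrps25, with 405 and 513 of them coding.

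Many members are short, so the fold changes were read against transcript length. The median member transcript had 1226 bases. Of 38 members under that length 23 were called lower, with a median log2 fold change of -0.19, and of 39 members at or above it 21 were, with a median of -0.15. Split at 1000 bases, the counts were 15 of 28 shorter members (median -0.16) and 29 of 49 longer ones (median -0.17). The order of short and long members therefore depended on where they were divided.

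Over all genes the fold change went with length. Of all tested genes under 1226 bases 22.1% were called lower and 9.80% higher, with a median log2 fold change of -0.04. At or above that length 18.2% were lower and 18.7% higher, with a median of 0.00. All genes were also divided into 4 equal classes of length. In the shortest, up to 1725 bases, the median was -0.03 over all genes and -0.16 over its 53 members, 30 of them called lower. In the longest class the median was 0.04 over all genes, 13.1% of which were lower and 28.2% higher, and -0.14 over its 6 members, 3 of them called lower. Across the 77 members log2 fold change and log10 transcript length had r = 0.10 and rho = 0.08, as a description over genes that share the same 6 libraries.

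By library, the median member under 1226 bases deviated from its own mean by -0.07, -0.09 and -0.12 on the log2 scale in shFam172a and by 0.05, 0.12 and 0.14 in shCtrl. For other genes of that length the median deviations were 0.01, -0.01 and -0.05 in shFam172a and 0.00, 0.04 and 0.03 in shCtrl. The members' values did not overlap between the groups, and those of other short genes overlapped. With smooth terms for length and GC content in every library, 42 members were called lower and the medians were -0.15 for large and -0.14 for small subunit genes. Over all genes 2361 were lower in that fit, against 2386 in the reported one.

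**Figure D5:**
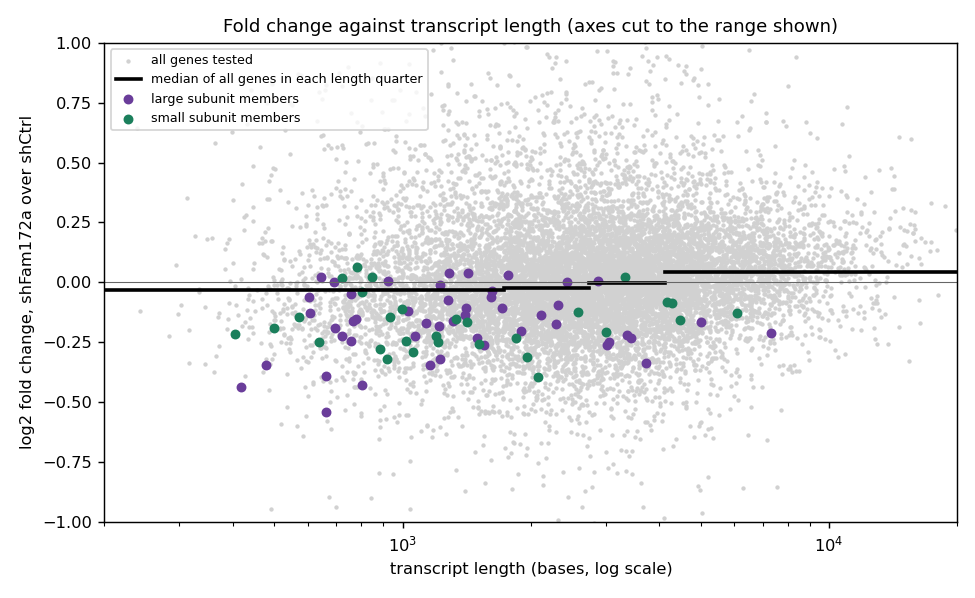
Log2 fold change, shFam172a over shCtrl (y axis, shown from -1 to 1), against transcript length in bases (x axis, log scale) for all genes tested (grey), large subunit members (purple) and small subunit members (green). Black lines give the median of all genes in each of 4 length classes, -0.03 in the shortest and 0.04 in the longest; the medians of the members in those classes, -0.16, -0.15, -0.22 and -0.14, lie below them.

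GC content, coding length, level and overlap with other genes were also examined. Fold change and log10 transcript GC content had r = 0.20 and rho = 0.24 across the 77 members. The values were 0.27 and 0.35 for large and 0.03 and -0.04 for small subunit genes, again as a description. For log10 coding length they were 0.03 and -0.02 across the 77 members. Fold change and log10 mean CPM in shCtrl had r = -0.20 and rho = -0.15 across the 77 members, and 6898 genes within the members' range of mean CPM were called lower in 21.6% of cases and higher in 18.3%. Exons of 32 members overlap those of another annotated gene, and 14 of these were called lower (median log2 fold change -0.13). Of the 45 members with no such overlap 30 were called lower (median -0.19). With the shFam172a libraries thinned to the depth of shCtrl, 42 members were called lower. Over all genes 2140 were lower in that fit, against 2386 in the reported one.

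Mitoribosomal proteins under other symbols were read beside the family. Of 5 tested 1 was lower and 0 higher, beside 18.6% lower and 17.5% higher over all genes. Their median log2 fold change was 0.01. The lower gene was Chchd1, a small subunit protein, which averaged 27.1 ± 1.71 CPM in shFam172a and 36.2 ± 0.982 CPM in shCtrl (-0.42 ± 0.063 log2). Its exons overlap those of 6230400D17Rik by 23 bases on the opposite strand. Dap3, Aurkaip1, Ptcd3 and Gadd45gip1 were not called. Ict1, the older symbol of Mrpl58 and so outside the naming rule, was at 42.8 ± 0.486 CPM in shFam172a and 50.4 ± 5.14 CPM in shCtrl, and was called lower (-0.24 ± 0.057 log2, adjusted p = 0.00096).

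Factors that build the mitoribosome were counted in the same way. Of 25 assembly factors tested 4 were lower and 0 higher, with a median log2 fold change of -0.06, where 18.6% of all genes were lower and 17.5% higher. Ndufab1, the mitochondrial acyl carrier protein, averaged 82.5 ± 1.83 CPM in shFam172a and 105 ± 4.97 CPM in shCtrl (-0.36 ± 0.041 log2). Mpv17l2, a membrane protein that takes part in assembly, averaged 9.83 ± 1.18 CPM in shFam172a and 12.6 ± 0.448 CPM in shCtrl (-0.36 ± 0.11 log2). Rpusd3, a pseudouridine synthase family member, averaged 9.60 ± 0.515 CPM in shFam172a and 11.8 ± 0.245 CPM in shCtrl (-0.29 ± 0.10 log2).

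Of 15 factors for translation on the mitoribosome or for its messages, 5 were lower and 1 was higher, with a median of -0.12, beside 18.6% lower and 17.5% higher over all genes. Slirp, which binds mitochondrial messages, was at -0.44 ± 0.15 log2 from a low level, 5.42 ± 1.16 CPM in shFam172a and 7.35 ± 1.01 CPM in shCtrl. Mtfmt, which formylates the initiator tRNA, was at -0.30 ± 0.094 log2 and Tsfm, an elongation factor, at -0.29 ± 0.048. Guf1, a homologue of bacterial LepA, was the factor called higher, at 54.8 ± 3.56 CPM in shFam172a and 46.2 ± 2.59 CPM in shCtrl (0.24 ± 0.055 log2).

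The tRNA synthetases of mitochondria held 3 lower and 2 higher genes of 17 tested, where 18.6% of all genes were lower and 17.5% higher. The lower ones were Fars2 at -0.32 ± 0.10, Tars2 at -0.23 ± 0.050 and Rars2 at -0.22 ± 0.061 log2, and the higher ones Cars2 at 0.32 ± 0.072 and Vars2 at 0.18 ± 0.066 log2. The median of the 17 was 0.02. Cars2 averaged 26.8 ± 0.308 CPM in shFam172a and 21.6 ± 1.97 CPM in shCtrl.

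Of 14 regulators of mitochondrial gene expression tested, 4 were lower and 2 higher, with a median of -0.03, beside the 18.6% lower and 17.5% higher of all genes. Ppargc1b, a coactivator of the PGC-1 family, was at -0.29 ± 0.10 log2, its relative Pprc1 at -0.21 ± 0.041 and Gabpb1, a subunit of GABP, at -0.20 ± 0.045. Gabpb2 was higher at 0.12 ± 0.042 log2 and Yy1 at 0.11 ± 0.042. Gabpb1 averaged 61.0 ± 0.532 CPM in shFam172a and 70.3 ± 2.05 CPM in shCtrl. The messages and ribosomal RNAs that mitochondrial DNA encodes were not analysed here.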

How the data were processed

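The deposited values are raw counts of read pairs for each gene symbol, not normalized by the authors. The series table was used here, after checking that each sample's own table holds the same numbers. The submitters' processing notes list HISAT2 2.0.5, HTSeq and build mm10. Which gene annotation and which strand setting the counting used is not given in the sources used here. Entries that name no gene, 5 in all, entered neither the library sizes nor the tests; pairs in no gene made up 17.2% to 17.9% of pairs in shFam172a and 16.4% to 16.6% in shCtrl.

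Of 18128 genes with any count, filterByExpr by group kept 12820. TMM factors scaled the libraries, and the quasi-likelihood test of edgeR 4.0.16 (robust glmQLFit, glmQLFTest; R 4.3.3) compared the groups, with no other term, two-sided, and Benjamini-Hochberg adjusted over all genes tested, with calls under 0.05. Fold changes are shFam172a over shCtrl and SE is the size of the log2 fold change divided by the root of F. CPM and TPM values were computed from the counts. The steps were tested on simulated data. Same-numbered replicates did not deviate together, so the numbers were not used as pairs.

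Lengths, positions and exon overlaps came from GENCODE M21 (GRCm38), where all 77 members matched by symbol, with 1 protein-coding transcript of middle length per gene. The naming rule took up to 8 called genes per direction and subunit by fold change, the 3 highest and 2 lowest per length in shCtrl, and the 3 genes whose symbol departs from their place. For other lists it took up to 3 called genes per direction. The members, lists and comparisons were chosen with earlier results of these data known. Alternatives were another scaling, DESeq2 1.42.0, other filters, length and GC corrections, thinning, a replicate block and each library left out.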

Additional observations from a re-analysis of the deposited data

How the results depend on the processing

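The count of members called lower was 44 and ran from 37 with DESeq2 to 44 over 15 alternatives (39 to 43 with 1 library left out), and the count called higher was 0 in each. Calls over all genes moved as well. In the reported fit 2386 were lower and 2241 higher. Over the 15 alternatives 1770, with DESeq2, to 2381 were lower (1877 to 2227 with 1 library left out) and 1637 to 2285 were higher. 35 members were called lower in the reported fit and in all 15. Calls ran from 23 to 26 for the 48 large and from 14 to 18 for the 29 small subunit symbols. With genes placed by particle in the reported fit they were 27 of 50 and 16 of 26. The median of the small subunit genes, -0.16, was -0.13 with a correction for coding length and GC content, which was added after seeing the data, and -0.21 to -0.16 with 1 library left out, the lowest without shCtrl replicate 1. The cause was not tested. With the replicate number as a block 43 members were called lower, and same-numbered libraries did not deviate together (r = -0.0054, -0.0038 and -0.0096). Over 24 named members and 15 alternatives, 342 of 360 values kept their direction and call, 14 lost the call (Mrpl32, Mrps33 and Mrps36) and 4 changed sign, none of them called. Those were Mrpl57 without shCtrl replicate 1 (-0.00027), shCtrl replicate 3 (-0.021) or shFam172a replicate 1 (-0.027), within -0.027 to 0.045 over the libraries left out and up to 0.080 over all 15 alternatives, and Mrps30 without shCtrl replicate 3 (-0.023), within -0.023 to 0.062 over all 15. Members had 109 to 2263 counts per library, and the shCtrl libraries were the shallower ones; how depth limits calls at low members was not examined.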
